A study of Solanum lycopersicum x Solanum pennellii and Solanum lycopersicum and Solanum pennellii with 31 samples.

Results

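The sequences described here are the small RNAs (sRNAs) of 23-24 nt that matched the M82 sequence of the H06 locus and not its S. pennellii sequence. H06 is a stretch of tomato chromosome 8 that carries different epialleles in different genotypes, that is, alleles that differ in DNA methylation and in the sRNAs they produce. The members were taken from 3 tables of H06 sRNAs as every distinct sequence of 23 or 24 nt whose lines, over all the tables, name the M82 reference alone. There were 28 of them among 78 distinct H06 sequences of that size and 111 of any size, against 47 that matched S. pennellii alone and 3 that matched both. The 28 members carried 41 reads in all.

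Libraries came from M82, a cultivar of Solanum lycopersicum, from the wild relative S. pennellii LA0716 and from the F1 of M82 and LA0716, which carries 1 H06 allele from each parent. Leaves were taken at 2 weeks, mature flowers and pollen at 2 months, and no plant was treated. The F1 had 4 libraries of each tissue and M82 had 2, from individual plants. S. pennellii had 2 libraries of leaf and of pollen and 1 flower library that could be used. The tables give no library depth, and the study states only an approximate size common to the libraries, so counts are raw, and a difference between tissues cannot be told apart from a difference in depth, except where reads of both alleles are compared within a library. In every comparison with leaves, tissue also cannot be told apart from plant age.

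In plants, sRNAs of 24 nt are typical of RNA-directed DNA methylation. In this pathway the polymerase Pol IV makes short transcripts, RDR2 copies them into double-stranded RNA, and a Dicer-like enzyme cuts the duplex into siRNAs. These are bound by Argonaute proteins of the AGO4 clade, which are known from Arabidopsis to favour a 5' adenine, and they guide DNA methyltransferases to matching sequence. A read that matches a single allele has the sequence of that parent at the bases that set the alleles apart. In the F1, reads were sorted by this match. Matching was to the H06 sequences alone, so an origin of reads elsewhere in the genome was not tested.

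Of the members, 14 fell in positions 79 to 174 of the 462-base M82 sequence, which held more of them than any other stretch. This stretch is printed with its S. pennellii counterpart (positions 78 to 173) to show what tells the alleles apart. Both are written 5' to 3' on the plus strand, and the 10 bases that differ are in capitals.
M82, 79 to 174: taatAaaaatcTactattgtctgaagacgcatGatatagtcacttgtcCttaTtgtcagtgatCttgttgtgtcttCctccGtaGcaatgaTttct
S. pennellii, 78 to 173: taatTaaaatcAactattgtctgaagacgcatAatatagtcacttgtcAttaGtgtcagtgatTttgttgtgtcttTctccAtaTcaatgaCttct

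The 11 members with at least 2 reads, or with a read in an M82 or S. pennellii library, are printed next, because they were read repeatedly or bear on the comparison with the parents. Each is written 5' to 3' with its start, end and strand on the M82 sequence. Capitals mark the bases that differ from the closest S. pennellii site of the same length.
80 to 102, minus: tcagacaatagtAgattttTatt
80 to 103, minus: ttcagacaatagtAgattttTatt
84 to 107, plus: aaaatcTactattgtctgaagacg
105 to 128, plus: acgcatGatatagtcacttgtcCt
109 to 132, plus: atGatatagtcacttgtcCttaTt
120 to 142, plus: acttgtcCttaTtgtcagtgatC
234 to 257, minus: atCttaactatatcattgcggatc
275 to 298, minus: atCagctaCctacttttgtctcgt
389 to 412, minus: catggaaatacaatattggCtact
391 to 414, plus: taGccaatattgtatttccatgtt
392 to 415, plus: aGccaatattgtatttccatgttt
The other 17 members had 1 read each, 11 in F1 flowers and 6 in F1 pollen, and enter all the values that follow.

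Most windows of this size occur on a single H06 sequence, which does not measure how reliably a read is assigned to an allele. Of the 1758 windows of 23 and 24 nt that the M82 sequence allows on both strands, 1574 (89.5%) do not occur on the S. pennellii sequence, and 1610 of 1794 S. pennellii windows (89.7%) do not occur on M82. Among the members, 7 differed from the closest S. pennellii site by a single base, 11 by 2 bases, 8 by 3 and 1 by 4. The remaining member, at 247 to 270 on the minus strand and read once in F1 flower replicate 1, had no close counterpart. Its closest site without gaps differed by 10 bases and lay elsewhere on S. pennellii, at 383 to 406, and with gaps allowed the edit distance was 7.

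No leaf library of any genotype held a member. This was so in all 4 F1, both M82 and both S. pennellii leaf libraries. A count of 0 in a library taken alone allows up to 3 reads, which is not a limit for the mean of several libraries. F1 flowers held 5, 2, 7 and 7 reads of members in replicates 1 to 4, a mean of 5.25 (SD 2.36, n = 4). In pollen of the F1 there were 6, 4, 1 and 2 such reads, on average 3.25 (SD 2.22, n = 4). The flower and the pollen libraries thus all lay above the leaf libraries, while flowers and pollen overlapped. Reads that matched S. pennellii alone came to 1 in F1 leaves, 10 in F1 flowers and 27 in F1 pollen. Scarcity in leaves was therefore not particular to the members.

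Flowers exceeded leaves by 5.25 reads and pollen exceeded leaves by 3.25 reads per library. Each difference gave p = 0.0286 in a two-sided exact permutation test, the lowest value possible with 4 libraries in each group. Adjusted by Benjamini-Hochberg over the 3 tissue comparisons, this permutation p was 0.0429. Flowers exceeded pollen by 2.0 reads, less than libraries of 1 tissue differed among themselves (exact permutation test, p = 0.286, adjusted p = 0.286). When any library was left out, the smallest p of the leaf comparisons rose to 0.0571, above the threshold of 0.05. Both calls were also lost with reads of 24 nt alone, where flowers exceeded leaves by 4.25 reads (exact permutation test, adjusted p = 0.0857) and pollen by 1.75 (adjusted p = 0.143 by the same exact test). Of the 13 member reads in F1 pollen, 6 had 23 nt.

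Flowers of M82 itself held 0 member reads in both libraries, and the S. pennellii flower library held 0 beside 19 reads that matched S. pennellii alone. The F1 flower libraries were all above these values. The difference between F1 and M82 flowers was 5.25 reads, with p = 0.133 in a two-sided exact permutation test, the lowest value that groups of 4 and 2 can give, and 0.4 when adjusted over the 3 genotype comparisons. No comparison of this size can pass 0.05.

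Pollen was the only tissue in which M82 held members. Its libraries had 1 and 3 reads, a mean of 2.0 (SD 1.41, n = 2), which overlapped the F1 pollen range of 1 to 6. The difference of 1.25 reads between F1 and M82 pollen was within the spread (exact permutation test, p = 0.667, adjusted p = 0.667), and it turned to -0.25 reads when reads of 24 nt alone were counted. The M82 pollen reads were 4 different sequences. Of these, 80 to 103 (minus) was also read in F1 flowers. The others, 84 to 107, 109 to 132 and 391 to 414 (all plus), were not read in the F1.

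S. pennellii pollen also held reads that matched M82 alone, although M82 is not among its parents. Replicate 1 held 0 and replicate 2 held 3, so that its libraries overlapped those of F1 pollen (difference 1.75 reads, exact permutation test, p = 0.533, adjusted p = 0.667). The 3 reads were 2 of the sequence 389 to 412 (minus) and 1 of 392 to 415 (plus). Both sequences cover the same distinguishing base and no other. Counted from the 5' end of the sRNA, the only change to the S. pennellii site is C20T in the first and G2A in the second. The difference to F1 pollen was 3.25 reads without S. pennellii pollen replicate 2, but 0.25 without its replicate 1, 0.83 without F1 pollen replicate 1 and 0.25 with reads of 24 nt alone.

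The members were therefore also split by their distance to S. pennellii, which was decided on once their values were known. The 7 members with a single differing base held 3 reads in F1 flowers, 3 in F1 pollen, 2 in M82 pollen and 3 in S. pennellii pollen. The 21 members with at least 2 differing bases held 18 reads in F1 flowers, 10 in F1 pollen, 2 in M82 pollen and 0 in S. pennellii pollen. For these 21 members the F1 flower libraries had 4, 2, 7 and 5 reads and the F1 pollen libraries 6, 1, 1 and 2. Each F1 flower and pollen library thus still held at least 1 such read. Flowers exceeded leaves by 4.5 reads and pollen by 2.5 (exact permutation test, adjusted p = 0.0429 for each). As leaves held no member, any subset with a read in every F1 flower and pollen library gives the lowest p possible. These p values thus add no support of their own.

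Within F1 libraries, members were set against the reads that matched S. pennellii alone, so that depth cancels. In flowers the libraries held 5 against 3 reads, 2 against 2, 7 against 1 and 7 against 4. The M82 share was 65.9% on average (SD 15.7, n = 4), from 50.0% to 87.5%. In pollen they held 6 against 4 reads, 4 against 17, 1 against 3 and 2 against 3, an M82 share of 36.0% on average (SD 18.3, n = 4), from 19.0% to 60.0%. Pollen of S. pennellii, which lacks an M82 allele, was set beside this share. There it was 0% in replicate 1 (0 of 8 reads) and 30.0% in replicate 2 (3 of 10), above F1 pollen replicates 2 and 3 (19.0% and 25.0%). In the S. pennellii flower library it was 0% (0 of 19). The 2 sequences behind the 3 reads differ from S. pennellii by 1 base, and neither was read in F1 pollen. Whether F1 pollen holds reads of the same origin was not tested. In the F1, the M82 reads were at least as many as the S. pennellii reads in every flower library and were fewer in 3 of 4 pollen libraries.

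The shares differed by 29.9 percentage points, with p = 0.0571 in a two-sided exact permutation test, where 0.0286 is the smallest possible. The call depended on which reads were counted. With reads of 24 nt alone the shares were 66.7% and 20.5% and the exact permutation p was 0.0286, and with all sizes they were 61.5% and 31.1%, also at p = 0.0286. Counted as distinct sequences they were 64.3% and 38.2% (exact permutation test, p = 0.143). Without members found in S. pennellii they were 65.0% and 36.0% (exact permutation test, p = 0.0857). When both alleles were limited to sequences with at least 2 differences from the other allele, the shares were 62.5% and 50.0% and the exact permutation p was 0.6. Each library's share rests on 4 to 21 reads. For F1 pollen replicate 2, the deepest of these, the 95% exact binomial interval ran from 5.45% to 41.9%, and for F1 flower replicate 3 from 47.3% to 99.7%. Such intervals hold counting error alone, because reads amplified by PCR can be copies of 1 molecule.

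Along the M82 sequence the members formed 4 stretches of overlapping sequences. Positions 79 to 174 held 14 members and 22 of the 41 reads. Reads of this stretch were found in all 4 F1 flower libraries (3, 2, 5 and 2 reads), in F1 pollen replicates 1 and 2 (6 and 1 reads) and in both M82 pollen libraries (1 and 2 reads). It held no member read in S. pennellii. All 6 member reads of F1 pollen replicate 1 lay there.

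Positions 234 to 309 held 8 members and 11 reads, all of the F1. They came from 3 of the flower libraries (2, 2 and 3 reads in replicates 1, 3 and 4) and from pollen replicates 2 and 4 (3 and 1 reads). The 3 pollen reads of replicate 2 were copies of 1 sequence, 234 to 257 (minus), which differs from S. pennellii by C3T and was seen in no other library. Positions 389 to 437 held 5 members and 7 reads, with 1 in F1 flowers, 2 in F1 pollen, 1 in M82 pollen and 3 in S. pennellii pollen. This was the only stretch with member reads in all 3 genotypes, and it is printed with its S. pennellii counterpart because the M82 matches of S. pennellii pollen lie at its start, over the first capital.
M82, 389 to 437: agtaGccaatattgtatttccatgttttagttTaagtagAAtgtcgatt
S. pennellii, 398 to 446: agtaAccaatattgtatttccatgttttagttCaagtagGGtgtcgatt
A last member, 180 to 203 (plus), stood alone with 1 read in F1 flower replicate 4.

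Together the members covered 245 bases, 53.0% of the M82 sequence. The depth was highest from 84 to 102, where 11 reads overlapped, and in F1 flowers alone it peaked at 7 reads from 83 to 102, or without replicate 3 at 4 reads from 285 to 295. F1 pollen peaked at 5 reads from 121 to 128, of which 4 were from replicate 1. Without that library its peak was 3 reads from 234 to 257. No member touched positions 1 to 78 or 310 to 388, although 222 and 196 windows that would match M82 alone lie inside them. The aligned S. pennellii stretches, 1 to 77 and 314 to 397, held 2 reads and 1 read that matched S. pennellii alone and lay wholly inside. Reads across the edges of these stretches were not counted, so coverage of the alleles there was not compared on like terms.

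The same sequence was seldom read again. Of the 28 members, 24 were found in a single library and 21 had a single read. The most abundant was 80 to 103 (minus) with 5 reads, of which 2 were in F1 flower replicate 1, 2 in F1 flower replicate 3 and 1 in M82 pollen replicate 2. Its shorter form 80 to 102 (minus), which lacks the first base, had 2 reads in F1 flower replicate 3 and 1 in F1 pollen replicate 1. Besides this form, 105 to 128 (plus) was the only member found in both F1 flowers and F1 pollen, with 1 read in replicate 2 of each. The fourth member found in more than 1 library was 389 to 412 (minus), with 1 read in F1 flower replicate 4 beside the 2 in S. pennellii pollen. No member was found in both parents, but only 4 were found in M82 and 2 in S. pennellii, too few to read the lack of overlap as a result.

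Members came from both strands. Of the 28 sequences, 13 (46.4%, 95% exact binomial interval 27.5 to 66.1) were on the minus strand. By reads the minus strand took 15 of 21 in F1 flowers (71.4%, interval 47.8 to 88.7). In F1 pollen it took 6 of 13 (46.2%, interval 19.2 to 74.9). The intervals overlapped, but they pool reads over libraries, so this tests no difference. By library the share ran from 50.0% to 85.7% in flowers and from 0% to 75.0% in pollen. In F1 libraries the minus-strand share of members did not stand apart from that of reads matching S. pennellii alone (49.7% against 48.5% on average, n = 8, exact permutation test by sign changes within libraries, p = 0.938, adjusted p = 0.938 over 2 features).

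Plus and minus members overlapped by at least 15 nt in 17 pairs. In 2 pairs the members covered exactly the same interval, 105 to 128 and 120 to 142. The latter pair was read within 1 library, F1 pollen replicate 1, with 2 plus reads and 1 minus read. A duplex cut by a Dicer enzyme has overhangs of 2 nt at its 3' ends, and 1 pair had this geometry at both ends, 391 to 414 (plus) with 389 to 412 (minus). These came from different libraries, the plus member from M82 pollen and the minus member from F1 flowers and S. pennellii pollen, so they were not read together in a library.

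Adenine was the most frequent first base. It opened 17 of the 28 sequences (60.7%, interval 40.6 to 78.5), 9 of 15 on the plus strand and 8 of 13 on the minus strand. Thymine, which stands for uracil in the RNA, opened 6 sequences, guanine 4 and cytosine 1. Among all windows that would match M82 alone, 34.1% start with A, 31.9% with T, 16.96% with G and 17.1% with C. For sequences that matched S. pennellii alone, 16 of 47 started with A (34.0%, interval 20.9 to 49.3), where 34.7% of the possible windows do. These intervals pool sequences over libraries and treat overlapping sequences as independent, so they test no difference from the windows or between the alleles.

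By reads pooled over libraries the A share of members was 53.7% (22 of 41, interval 37.4 to 69.3, with the same limit), with 12 of 21 in F1 flowers and 7 of 13 in F1 pollen. The most abundant member and its shorter form start with T. Between F1 libraries it ran from 0% to 100%. The 7 F1 flower reads of replicate 3 included 5 that did not start with A, and both pollen reads of replicate 4 started with G. Set against the reads matching S. pennellii alone in the same libraries, a comparison added after the values were seen, the A share was 50.5% against 41.8% on average. This difference of 8.75 points (SD 48.1, n = 8, higher in 4 libraries, lower in 2 and equal in 2) was small beside the spread over libraries (exact permutation test by sign changes, p = 0.594, adjusted p = 0.938 over 2 features). A different first base on the alleles was thus not detectable over libraries.

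By size, 21 of the 28 members (75.0%) had 24 nt and 7 had 23 nt. Reads of 24 nt made up 17 of 21 in F1 flowers (81.0%, interval 58.1 to 94.6), 7 of 13 in F1 pollen (53.8%, interval 25.1 to 80.8), 4 of 4 in M82 pollen and 3 of 3 in S. pennellii pollen. In F1 pollen the 23-nt reads were 4 in replicate 1 and 1 each in replicates 3 and 4. The intervals of flowers and pollen overlapped, but they pool reads over libraries, so this tests no difference.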

How the data were processed

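The authors trimmed the small RNA reads with Trim Galore, aligned them to the H06 sequence of either parent with Bowtie 1.1.1, allowing no mismatch and keeping all matches, and deposited raw counts per library for every sequence found (15 to 24 nt). These counts were used without normalization, as the tables hold no depth. Each sequence was counted once. Of 24 value columns 1 was not used, since its name did not match the sample of its table (S. pennellii flower). The second M82 flower column, with the same misprint in the M82 table, was read as M82. Seedling locus counts were not used.

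All M82 matches were found at their stated positions on the H06 sequence that the study supplies. In the copy of the S. pennellii sequence used here bases 61 to 120 were lacking, and they were filled from deposited reads that overlap there without conflict, giving 471 bases. Closest sites were searched ungapped on both strands, and edit distances were taken with edlib 1.3.9.post1. Libraries were compared by two-sided exact permutation tests of means (p as 2 times the smaller tail), checked on simulated counts against scipy 1.17.1. Benjamini-Hochberg adjustment ran over 3 comparisons each for tissues and for genotypes, and over 2 features for first base and strand. The M82 share was a family of 1 test, so its p stayed unadjusted. The threshold was 0.05. Intervals are 95% exact binomial.

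The members, tests and alternatives were chosen with earlier results of these data known. Sequences were printed by a rule: at least 2 reads, at least 2 libraries, or a read in M82 or S. pennellii. Alternatives were other read sizes, distinct sequences, counting each match, a filter on single reads, a percentage of H06 reads, leaving out members found in S. pennellii, absolute differences, a log2 scale with a pseudocount of 1, each library left out, reads per possible window and a replicate block. Sequences with at least 2 differences, the first base and the strand were compared after the values were seen. The replicate numbers were not taken as pairs, since the labels do not say that a number marks the same plant across tissues. The study names the same number of plants per genotype for leaf, flower and pollen, so tissues may share plants. The main tests treated libraries as independent.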

Additional observations from a re-analysis of the deposited data

Results flagged for a closer look

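F1 pollen replicate 2 held 17 reads of 23-24 nt that matched S. pennellii alone, far above the 4, 3 and 3 of the other F1 pollen libraries, while its 4 member reads lay within their range. In F1 leaves, replicate 4 held 1 read that matched S. pennellii alone and the other libraries 0. The criterion, Dixon's at the 95% level, is set to pick about 1 in 20 groups by chance for normally distributed values, which counts this small are not, and in leaves it rests on a single read.

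Reads that matched M82 alone but were shorter, at 15 to 22 nt, were outside the comparisons. They came to 5 in F1 flowers, 4 in F1 pollen and 3 in S. pennellii pollen, against 0 in all M82 libraries. They were 11 sequences. Those of S. pennellii pollen lay at 123 to 141, 377 to 391 and 392 to 411 of the M82 sequence, and the first of them differs from S. pennellii by 2 bases. Conversely, M82 flower replicates 1 and 2 each held 1 read of 15 to 22 nt that matched S. pennellii alone. Reads of these sizes enter the M82 share taken with all sizes.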

How the results depend on the processing

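The excess of F1 flowers and F1 pollen over leaves kept its direction under every alternative run. It could not reverse, as no F1 leaf library held a read matching M82 alone. Its call was fragile, since 4 libraries against 4 barely reach the threshold. With 1 library left out, flowers exceeded leaves by 4.67 to 6.33 reads and pollen by 2.33 to 4.0 (exact permutation test, adjusted p = 0.0857). With 24 nt only the differences were 4.25 and 1.75 reads (exact permutation test, adjusted p = 0.0857 and 0.143), and with members of at least 2 reads 2.5 and 1.75 (0.0857 and 0.643). As a percentage of all H06 reads of 23-24 nt they were 64.2 and 36.0 points (0.4 each), where no lower p was possible, because 1 leaf library alone had such reads, so this says nothing of stability. With the replicate block the differences were 5.25 and 3.25 reads, and the exact permutation p of 0.125 was the smallest that 4 pairs allow. Same-numbered flower and pollen libraries of the F1 correlated over members by -0.07 to 0.18, and 1 of 4 flower libraries correlated best with its own number. As 24 of 28 members occurred in a single library, these correlations cannot show whether a number marks a plant. The numbers were not taken as pairs.

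F1 less M82 pollen was -0.25 reads with 24 nt only and -63.99 points as a percentage of H06 reads, where M82 without an S. pennellii allele stood at 100% and the F1 could only be lower. The difference in M82 share between F1 flowers and pollen was 46.2 points with 24 nt only and 30.4 with all sizes (exact permutation test, p = 0.0286 for each), 12.5 with at least 2 differences from the other allele, and 22.7 to 37.9 with a library left out. The A-share difference between alleles ran from -1.77 points without F1 pollen replicate 2 to 20.2 without F1 flower replicate 3. The minus-strand difference was -2.67 points with distinct sequences and ran from -5.07 to 10.97 with a library left out, being -0.46, -2.13 and -5.07 without F1 flower replicate 1, F1 pollen replicate 1 and F1 pollen replicate 2. The causes of these changes were not tested. The tables hold no depth, and 41 reads in all limit every share.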
